A study of Mus musculus with 2 samples.

Results

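The genes described here are 9 transcriptional targets of p53 with roles in cell death: Bax, Bbc3, Pmaip1, Apaf1, Fas, Tnfrsf10b, Eda2r, Phlda3 and Perp. They were taken by gene symbol, from a list made with earlier results of these data known, and are 9 of the 32285 genes in the count tables. All 9 were detected in both libraries.

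The tumour suppressor p53, encoded by Trp53, is a transcription factor that is stabilised by DNA damage and other stress and then switches on genes of cell cycle arrest, repair and apoptosis. Its death targets act at several steps. BH3-only proteins such as Puma (Bbc3) and Noxa (Pmaip1) disarm the protective Bcl-2 proteins, Bax then permeabilises the outer mitochondrial membrane, and released cytochrome c assembles with Apaf1 into the apoptosome, which activates caspases. Receptors of the tumour necrosis factor family, among them Fas, the TRAIL receptor (Tnfrsf10b) and the ectodysplasin A2 receptor (Eda2r), signal from the cell surface.

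The study compared E9.5 whole embryos of 2 genotypes by droplet-based single-cell RNA sequencing, in which transcripts are counted near their 3′ end by unique molecular identifiers (UMIs). One library came from wild-type (Usb1+/+) embryos and the other from Usb1-null (Usb1-/-) embryos with a germline CRISPR/Cas9 knockout of Usb1, the gene of a nuclease that trims U6 small nuclear RNA, obtained by crossing heterozygous mice. The mouse strain, the sex and the number of embryos behind each library were not given in the sources used here, and the labels call the extracted molecule nuclear RNA although the protocol describes a suspension of cells. With 1 library per genotype there was no replicate check, no test between genotypes was possible, and every comparison is between these 2 libraries. Ratios are Usb1-null over wild-type, levels are UMIs scaled to a total of 1000000 per library or cluster (CPM), and each bracketed range is an exact 95% interval for counting error alone.

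After filtering, 15161 cells with 21732106 UMIs remained in the wild-type library, at a median of 1243 UMIs per cell, and 13018 cells with 33383886 UMIs in the Usb1-null library, at a median of 2299.5. The libraries also differed in sex: Xist, the RNA of the inactive X chromosome, had 53276 UMIs in the wild-type and 26 in the Usb1-null library, whereas the Y-linked gene Uty had 3 and 11796. Sex and genotype therefore cannot be told apart here. Of all UMIs, ribosomal protein genes took 2.68% in the wild-type and 1.90% in the Usb1-null library, and mitochondrial genes 0.435% and 0.191%. The 12 genes of a mature liver list, foreign to most of the embryo at this stage, were all higher in the Usb1-null library and summed to 10.5 and 93.8 CPM. Usb1 itself had 68 and 47 UMIs, a ratio of 0.450 (0.303 to 0.662). The knockout was designed to remove the first exons, and where in the gene these UMIs lie was not measured, so they do not settle the labels. Some values below are also given for cells of a set depth or without cells holding liver UMIs. Beyond that, the part of depth, RNA quality or liver RNA in the values was not tested.

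Bax and Eda2r bracketed the death genes, with the lowest and the highest ratio between the libraries, and the bases upstream of their transcription starts are shown to set these 2 promoters side by side. Both windows are RefSeq sequence of GRCm38.p6 and run 5′ to 3′ toward the start on the minus strand, from chr7:45466899-45467148 for Bax and chrX:97377210-97377459 for Eda2r. Capitals mark a pair of p53 half-site matches in Bax and the letters TATAA in Eda2r.
Bax: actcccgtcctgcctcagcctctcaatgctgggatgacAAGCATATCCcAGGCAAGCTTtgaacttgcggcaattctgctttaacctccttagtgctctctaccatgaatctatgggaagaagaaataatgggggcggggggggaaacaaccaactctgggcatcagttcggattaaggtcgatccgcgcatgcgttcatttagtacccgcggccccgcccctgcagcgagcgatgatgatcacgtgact
Eda2r: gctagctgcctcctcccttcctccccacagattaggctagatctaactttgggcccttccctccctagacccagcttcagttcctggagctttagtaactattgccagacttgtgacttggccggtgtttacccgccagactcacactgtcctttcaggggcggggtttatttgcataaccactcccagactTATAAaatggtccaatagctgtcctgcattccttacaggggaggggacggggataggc
The p53 consensus consists of a pair of half-sites, each of 10 letters and palindromic, so that both strands are read at once. In Bax, AAGCATATCC at position −212 from the start matched 9 of 10 letters and AGGCAAGCTT at −201 matched 10 of 10, with 1 base between them. A pair matching at least 19 of 20 letters occurred in 1.09% of 32851 promoter windows, which also took in the first bases after the start. Among the 6 of 9 genes with a window in the table, Bax alone held a full half-site, against 8.36% of all windows. The best pair in Eda2r matched 16 of 20 letters, a score that 89.3% of windows reached. TATAA, searched on the given strand, lay at −58 in Eda2r and occurred in 17.5% of windows. Pmaip1, Tnfrsf10b and Perp had no window. A match in these letters is a description of the sequence and not a site, and nothing follows from its absence in so short a stretch.

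Taken as levels per library, 7 of the 9 death genes were higher in the Usb1-null library and 2, Bax and Perp, were lower. 5 genes were at least 1.5-fold higher, namely Eda2r, Pmaip1, Tnfrsf10b, Bbc3 and Phlda3, where 9.2% of the 16752 genes with at least 50 UMIs were that much higher. None was at least 1.5-fold lower, against 5.9% of all genes, and Eda2r and Pmaip1 were at least 2-fold higher, against 3.77%. The interval of the ratio lay above 1 for 6 genes (27.1% of all genes) and below 1 for Bax alone (28.5%). The median log2 ratio, with 1 CPM added to both levels, was 0.57 over the 9 genes and −0.00 over all genes compared. By their log2 ratio, Eda2r stood above 99.8% of the compared genes, Pmaip1 above 97.6%, Tnfrsf10b above 96.8%, Bbc3 above 95.0%, Phlda3 above 94.0% and Apaf1 above 88.8%. Fas stood above 56.9%, Perp above 34.6% and Bax above 6.41%. The death genes thus spread over nearly the whole range of ratios, with the receptors Eda2r and Fas far apart and the mitochondrial effector Bax near the low end.

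**Figure D1:**
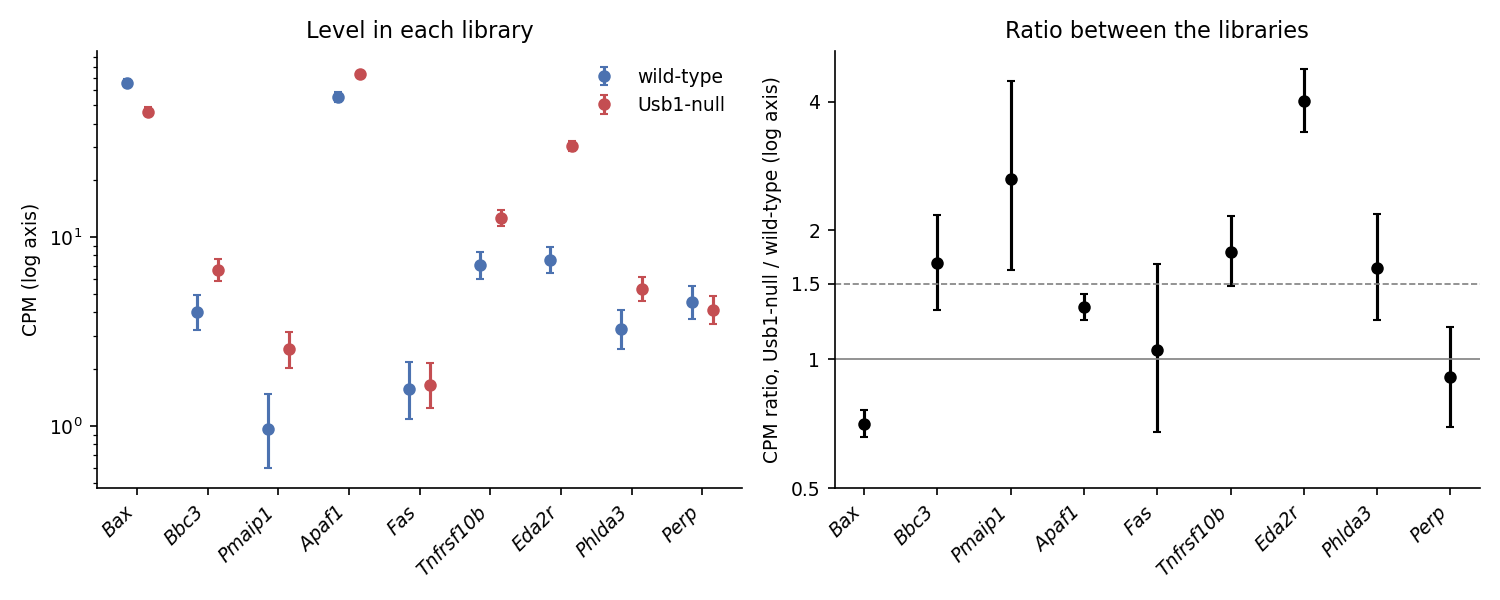
Levels of the 9 death genes in each library (left, CPM on a log axis) and the Usb1-null over wild-type ratio (right, log axis), with bars for exact 95% intervals of counting error and lines at a ratio of 1 and, dashed, 1.5. Eda2r stands highest with a ratio of 4.02, and Bax is the only gene whose whole interval lies below 1.

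The genes of the mitochondrial step did not move together. Bax (ENSMUSG00000003873, chromosome 7, 45461697 to 45466898, minus strand), the pore-forming effector, had 1423 UMIs in the wild-type and 1545 in the deeper Usb1-null library. Its level was 65.5 CPM (62.1 to 69.0) and 46.3 CPM (44.0 to 48.6), a ratio of 0.707 (0.657 to 0.760). In cells with 1000 to 3000 UMIs the log2 ratio of Bax was −0.26, nearer to equal than the −0.49 of all kept cells and outside its counting interval. On the same strand Bax overlaps Gm45808, a gene model that is not in the feature list, so that reads from the shared stretch could not be assigned with certainty. The BH3-only genes had the opposite direction. Bbc3 (ENSMUSG00000002083, chromosome 7, 16308393 to 16318205, plus strand), which encodes Puma, had 87 and 224 UMIs, or 4.0 CPM (3.21 to 4.94) and 6.71 CPM (5.86 to 7.65). The ratio of Bbc3 was 1.68 (1.30 to 2.17). Pmaip1 (ENSMUSG00000024521, chromosome 18, 66458533 to 66465565, plus strand), which encodes Noxa, had the fewest wild-type UMIs of the 9 genes, with 21 and 85 UMIs. Its level was 0.966 CPM (0.598 to 1.48) in the wild-type and 2.55 CPM (2.03 to 3.15) in the Usb1-null library, a ratio of 2.63 (1.62 to 4.47). Both BH3-only genes were higher beyond counting error, and for both the interval of the ratio was wide.

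Apaf1 (ENSMUSG00000019979, chromosome 10, 90989311 to 91082770, minus strand), the scaffold of the apoptosome, had 1201 and 2446 UMIs. It stood at 55.3 CPM (52.2 to 58.5) and 73.3 CPM (70.4 to 76.2), a ratio of 1.33 (1.24 to 1.42). Apaf1 was the gene with the narrowest interval of those that were higher in the Usb1-null library, and its ratio fell short of 1.5. The small RNA gene model Gm25390 lies within it on the opposite strand.

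Among the receptors, Eda2r and Tnfrsf10b were higher in the Usb1-null library and Fas could not be told from equal. Eda2r (ENSMUSG00000034457, chromosome X, 97333840 to 97377216, minus strand) had 165 UMIs in the wild-type and 1018 in the Usb1-null library. Its level was 7.59 CPM (6.48 to 8.84) and 30.5 CPM (28.6 to 32.4), a ratio of 4.02 (3.40 to 4.76). Gm42418, a gene model that takes in ribosomal RNA reads, had a ratio of 4.66 between the libraries and the level most like that of Eda2r across the clusters (Pearson r 0.89 over 36 sums), and its part in the result was not tested. Eda2r is X-linked and the libraries differed in sex, so the other X-linked genes were read beside it. The 539 compared genes of the X chromosome had a median log2 ratio of 0.02, 5.38% of them were at least 1.5-fold higher, and none exceeded Eda2r. Of 16181 autosomal genes, with a median of −0.00, 9.29% were at least 1.5-fold higher and 21 exceeded Eda2r. Tnfrsf10b (ENSMUSG00000022074, chromosome 14, 69767472 to 69784411, plus strand), the receptor for the death ligand TRAIL, had 154 and 422 UMIs, 7.09 CPM (6.01 to 8.30) and 12.6 CPM (11.5 to 13.9), and a ratio of 1.78 (1.48 to 2.16). Fas (ENSMUSG00000024778, chromosome 19, 34290666 to 34327772, plus strand), the receptor for Fas ligand, had 34 and 55 UMIs. Its level was 1.56 CPM (1.08 to 2.19) and 1.65 CPM (1.24 to 2.14), and the ratio of 1.05 had an interval from 0.674 to 1.67. A difference in Fas of up to that size was not detectable at this depth. A short gene model on the same strand, Gm27818, lies within Fas.

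The remaining genes act at membranes and on survival signalling. Phlda3 (ENSMUSG00000041801, chromosome 1, 135766119 to 135769136, plus strand), a pleckstrin homology protein that represses Akt, had 71 and 178 UMIs. Its level was 3.27 CPM (2.55 to 4.12) and 5.33 CPM (4.58 to 6.18), a ratio of 1.63 (1.23 to 2.18). Perp (ENSMUSG00000019851, chromosome 10, 18845020 to 18857073, plus strand), a tetraspan protein of desmosomes that is also a target of the p53 relative p63 in epithelia, had 99 and 138 UMIs. It stood at 4.56 CPM (3.70 to 5.55) and 4.13 CPM (3.47 to 4.88), with a ratio of 0.907 (0.696 to 1.19). Perp was therefore not separated from equal by counting error, while Phlda3 was.

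To follow the death genes across the embryo, the cells of both libraries were clustered jointly with the 9 genes withheld from the clustering. This gave 19 clusters, of which 18 held at least 100 cells in each library and were compared. 12 were named from marker genes. A gene was counted in a cluster where it had at least 20 UMIs over both libraries, so between 2 and 7 of the 9 genes were counted in a cluster. The median log2 ratio of the counted genes was above 0 in 16 of 18 clusters and ranged from −0.31 to 0.82, against −0.05 to 0.03 for the median of all genes in the same clusters. That count depends on the limit, which is on the sum of both libraries, so that a gene such as Eda2r in cluster 7, with 4 and 48 UMIs, was counted through the library where it was high. With a limit of at least 10 wild-type UMIs instead, chosen after the data had been seen, the median was above 0 in 10 of 17 clusters, and with no limit in 18 of 18. The 2 exceptions under the limit of 20 UMIs were the yolk sac endoderm and liver-like and the neuron-like clusters, where Bax and Apaf1 were the only genes counted. The same pair was all that was counted in primitive erythroid-like cells, cluster 16 and intermediate mesoderm-like cells, where the medians were 0.42, 0.21 and 0.18.

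**Figure D2:**
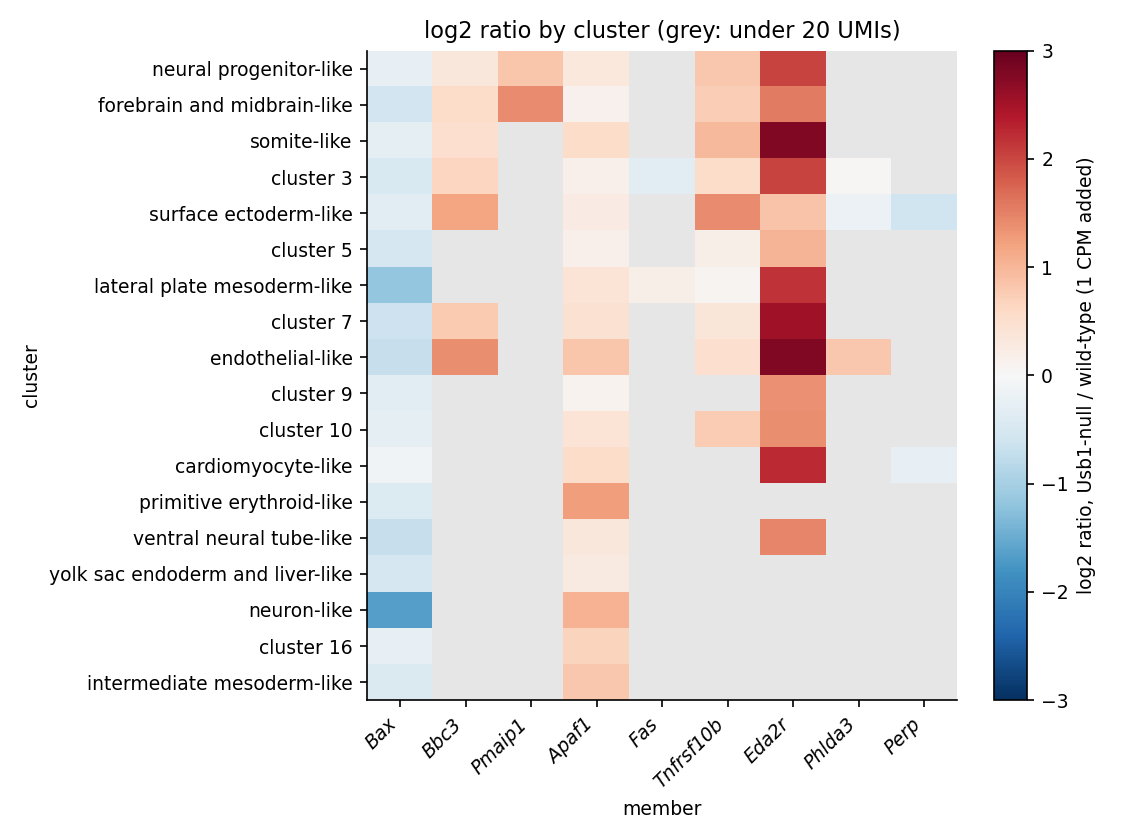
Log2 ratio (Usb1-null over wild-type, 1 CPM added) of each death gene in the 18 compared clusters, with red for higher and blue for lower in Usb1-null and grey where the gene had under 20 UMIs. The Eda2r and Apaf1 columns are red in every cluster counted, 13 and 18, and the Bax column is blue in all 18.

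Eda2r, Apaf1 and Bax were counted in most clusters and each had a single direction throughout. Eda2r was higher in 13 of 13, with 12 intervals above 1. Some of the 13 clusters, such as cardiomyocyte-like cells with 4 and 36 UMIs, were counted through the Usb1-null library. Among genes counted in at least 10 clusters, 3.99% were higher in every one. The lowest Eda2r ratio was in surface ectoderm-like cells, with 13.9 CPM in the wild-type and 25.9 CPM in the Usb1-null library, a ratio of 1.87 (1.18 to 3.03). The highest was in somite-like cells, with 3.28 and 28.3 CPM and a ratio of 8.63 (4.22 to 20.5). Surface ectoderm-like cells had the highest wild-type level of Eda2r among the 13 clusters and somite-like cells 1 of the lowest, while their Usb1-null levels were within counting error of each other. In the neuron-like cluster, where Eda2r was below the limit of 20 UMIs, the wild-type library had 1 UMI and the Usb1-null library 13, a level of 32.9 CPM (17.5 to 56.3).

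Apaf1 was higher in 18 of 18 clusters, where 5.05% of genes counted in all 18 were higher in every one, and 7 of its intervals lay above 1. Its ratio was lowest in cluster 9, which had few UMIs per cell and no name, at 1.08 (0.756 to 1.57). It was highest in primitive erythroid-like cells, at 2.42 (1.41 to 4.22), with 35.2 CPM in the wild-type and 85.2 CPM in the Usb1-null library. Bax was lower in 18 of 18 clusters, as were 5.95% of the genes counted in all 18, and 8 of its intervals lay below 1. Cardiomyocyte-like cells had the ratio nearest to 1, 0.927 (0.627 to 1.38). Neuron-like cells had the lowest, 0.309 (0.121 to 0.702), from 26 UMIs in the wild-type and 8 in the Usb1-null library. In lateral plate mesoderm-like cells, with more UMIs, Bax stood at 64.5 and 28.1 CPM, a ratio of 0.436 (0.313 to 0.603). Bax and Apaf1 thus had ratios in opposite directions in all 18 clusters, although for each gene most single intervals included 1. UMIs of both were found in every compared cluster of both libraries.

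**Figure D3:**
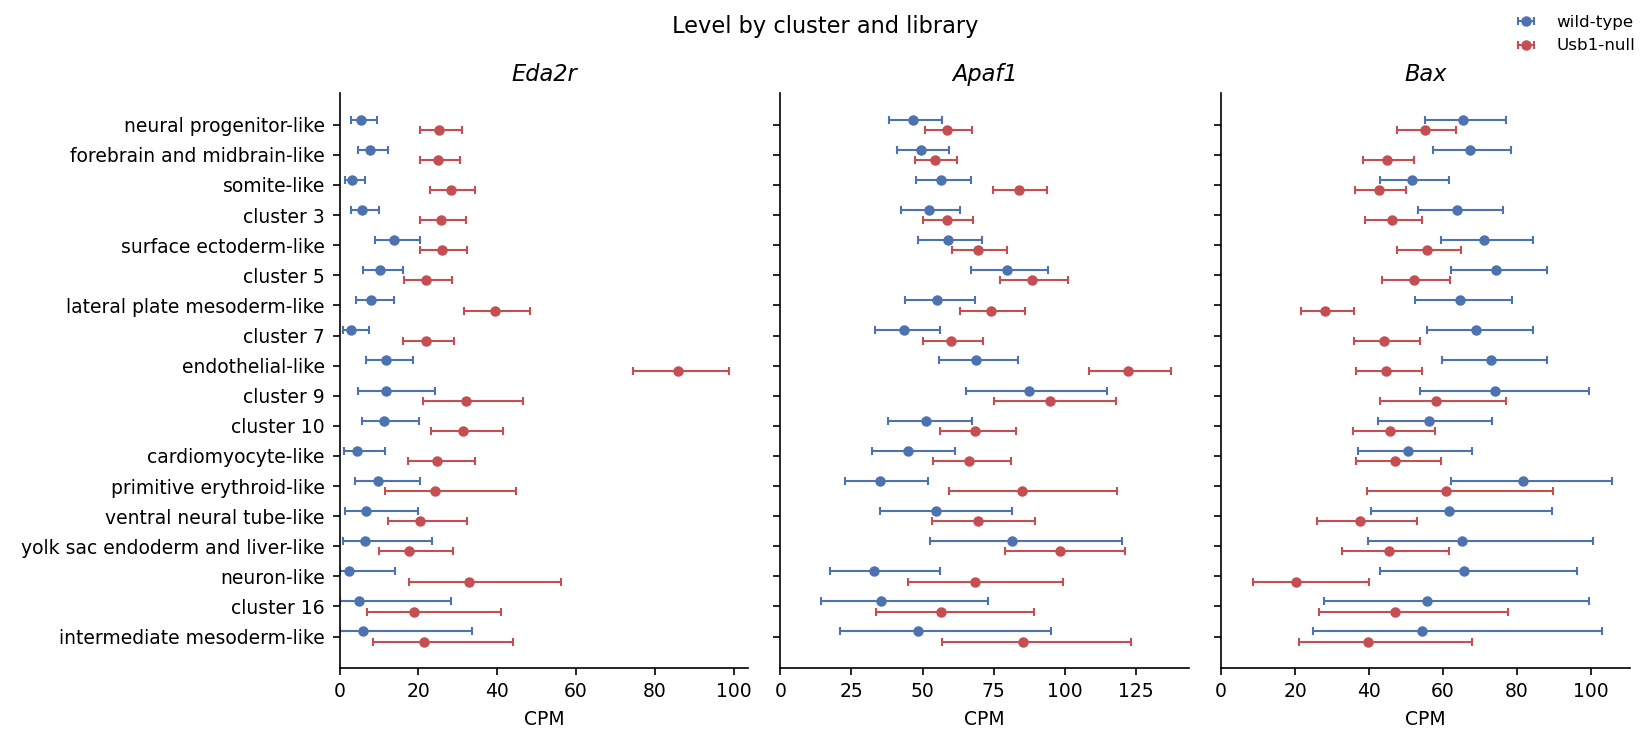
Levels in CPM of Eda2r, Apaf1 and Bax in the 18 compared clusters, wild-type in blue and Usb1-null in red, with bars for exact 95% intervals of counting error. Endothelial-like cells of the Usb1-null library stand apart for Eda2r, at 85.9 CPM, and are highest for Apaf1, at 122 CPM, with an interval that overlaps those of other clusters.

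The sparser genes were counted in fewer clusters. Tnfrsf10b was higher in 10 of 10 clusters, where 3.99% of genes counted in at least 10 clusters were higher in every one. Its interval lay above 1 in 2 of the clusters. These were the surface ectoderm-like cells, with 5.88 and 17.4 CPM and a ratio of 2.96 (1.52 to 6.30), and the somite-like cells, with 5.74 and 12.3 CPM and a ratio of 2.15 (1.16 to 4.24). Surface ectoderm-like cells therefore had the highest ratio of Tnfrsf10b and the lowest of Eda2r among the clusters counted, and whether the clusters differed was not tested. Bbc3 was higher in 7 of 7 clusters, where 4.49% of genes counted in at least 7 clusters were higher in every one, with an interval above 1 in endothelial-like cells alone. Surface ectoderm-like cells, with 4 and 18 UMIs of Bbc3, were counted through the Usb1-null library. In the 11 clusters below the limit Bbc3 was higher in 6 and lower in 5, from 28 and 54 UMIs in all. Pmaip1 was counted in the neural progenitor-like cluster, with a ratio of 1.99 (0.877 to 5.10). It was also counted, through the Usb1-null library, in the forebrain and midbrain-like cluster, with 3 and 19 UMIs and a ratio of 4.01 (1.18 to 21.2). In the 16 clusters below the limit Pmaip1 was higher in 10 and lower in 4, from 10 and 39 UMIs in all. Fas was counted in cluster 3, an unnamed cluster with mesenchymal markers, and in lateral plate mesoderm-like cells, with ratios of 0.756 (0.312 to 1.86) and 1.16 (0.481 to 2.97). No direction for Fas could be read from these counts.

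Endothelial-like cells, which carried all 9 endothelial markers, had the highest median log2 ratio of the counted death genes, 0.82. In these cells 4 of the 6 genes counted were at least 1.5-fold higher, against 9.77% of the 11797 genes compared there. Eda2r stood at 11.7 CPM (6.81 to 18.7) in the wild-type and 85.9 CPM (74.4 to 98.8) in the Usb1-null library. The next level among Usb1-null clusters compared was 39.4 CPM (31.7 to 48.3), in lateral plate mesoderm-like cells. Endothelial-like cells made up 6.05% of Usb1-null cells and gave 19.4% of the Eda2r UMIs of that library and 16.5% of those of Bbc3. In the wild-type library they made up 5.94% of cells and gave 10.3% and 9.2%, so their share was above their number of cells in both libraries. These cells were singled out by the median of their death genes, Eda2r among them, so their ratios beside those of all other cells are a description. The Eda2r ratio was 7.35 (4.48 to 12.9) in endothelial-like and 3.61 (3.03 to 4.34) in all other cells, and it was higher still in somite-like cells and in cluster 7, at 8.63 and 7.53. For Apaf1 the ratios were 1.78 (1.41 to 2.26) and 1.28 (1.19 to 1.38). For Bbc3, Bax and Tnfrsf10b the intervals overlapped, with ratios of 2.92 (1.34 to 7.26) and 1.54 (1.18 to 2.04), of 0.613 (0.463 to 0.812) and 0.714 (0.662 to 0.770), and of 1.45 (0.876 to 2.49) and 1.84 (1.5 to 2.26).

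Other genes of the p53 circuit were read in the same cells. Cdkn1a, the p21 inhibitor of cyclin-dependent kinases, had a ratio of 6.42 (2.79 to 18.2) in endothelial-like cells and 1.59 (1.19 to 2.14) elsewhere. A like ratio of Cdkn1a, 6.65 (1.62 to 58.5), was found in forebrain and midbrain-like cells, from 2 and 21 UMIs. Of the 6 clusters where Cdkn1a was counted it was higher in 4 and lower in 2. Mdm2, the ubiquitin ligase that degrades p53, had 2.31 (1.88 to 2.84) and 1.28 (1.2 to 1.37). Ccng1, cyclin G1, had 2.90 (1.87 to 4.67) and 1.57 (1.33 to 1.87). Trp53 itself was higher in endothelial-like cells, at 60.5 and 104 CPM and a ratio of 1.72 (1.34 to 2.22), and had a ratio of 0.963 (0.899 to 1.03) in all other cells. With the endothelial-like cluster left out, an alternative added after the data had been seen, 5 of the 9 death genes were still at least 1.5-fold higher, with a median log2 ratio of 0.52.

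Perp was largely a gene of the surface ectoderm-like cells, which carried all 9 of their markers. They gave 68.7% of the wild-type and 50.7% of the Usb1-null Perp UMIs, from 8.48% and 8.57% of the cells. There Perp stood at 36.4 CPM in the wild-type and 23.9 CPM in the Usb1-null library, a ratio of 0.657 (0.464 to 0.931). In cardiomyocyte-like cells, the only other cluster where Perp was counted, the ratio was 0.837 (0.359 to 2.01). In the 16 clusters below the limit Perp was higher in 10 and lower in 5, from 20 and 50 UMIs in all. Trp63, which encodes p63 and is itself a marker of this class, had 325 CPM (299 to 351) and 182 CPM (167 to 198) in the surface ectoderm-like cells, a ratio of 0.560 (0.498 to 0.631). Trp63 also had the highest Pearson correlation with Perp, 0.67, over the 36 sums of the 18 clusters in both libraries, among 8683 genes with at least 1000 UMIs. These points share their libraries, and the correlation is a description. Phlda3 was counted in surface ectoderm-like cells too, with 10.2 and 8.87 CPM, a ratio of 0.873 (0.465 to 1.67). In endothelial-like cells it had 5.5 and 10.4 CPM and a ratio of 1.89 (0.823 to 4.88), and in cluster 3 a ratio of 1.04 (0.399 to 2.89). In the 15 clusters below the limit Phlda3 was higher in 12 and lower in 2, from 36 and 114 UMIs in all.

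Per cell, the death genes were sparse. At least 1 UMI of any of the 9 was present in 18.8% of wild-type cells (18.2 to 19.4), as against 34.1% in the Usb1-null library (33.3 to 34.9). With each cell thinned to 800 UMIs, leaving out 2689 wild-type and 304 Usb1-null cells with fewer, the shares were 11.6% (11 to 12.1) and 13.8% (13.2 to 14.4). The shares pool genes with opposite directions. Eda2r was found in 1.01% of wild-type cells (0.856 to 1.18) and in 6.77% in the Usb1-null library (6.34 to 7.21), and after thinning in 0.513% (0.395 to 0.655) and 2.36% (2.1 to 2.64). For Bax the raw shares were 8.94% and 11%, but the thinned shares 5.21% (4.83 to 5.62) and 3.76% (3.44 to 4.10) had the direction of its CPM. Of the Usb1-null cells with Eda2r, 773 held 1 UMI, 86 held 2 and 22 held 3 or more.

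Free RNA in droplets also gives such UMIs, so primitive erythroid-like cells, a blood lineage, were read as a reference, with medians of 841 and 1742 UMIs per cell. Eda2r was found in 0.813% (0.264 to 1.89) of them in the wild-type and 4.10% (1.79 to 7.92) in the Usb1-null library, ranges that include the shares over all cells. A single Eda2r UMI is therefore not read here as expression by that cell. Bax was found in 8.78% (6.66 to 11.3) and 12.8% (8.47 to 18.3) of erythroid-like cells, ranges that also include its shares over all cells. Apaf1 was found in 4.07% (2.65 to 5.94) and 14.9% (10.2 to 20.7) of them, against 7.43% and 16.0% of all cells. The part of free RNA in these values was not tested. Perp was found in 0.488% of wild-type erythroid-like cells and in none of the Usb1-null ones, where the interval reaches 1.87%. In surface ectoderm-like cells, with medians of 1235 and 2300 UMIs, Perp was found in 4.74% (3.65 to 6.05) and 5.83% (4.53 to 7.37). Perp thus differed between these cell classes beyond counting error in both libraries.

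Cells with a Cdkn1a UMI were set apart to see whether the death genes were more frequent there. There were 72 such cells in the wild-type and 204 in the Usb1-null library, 48 of the latter endothelial-like. The UMIs of each death gene in these cells were set against the number expected from their total UMIs and the level of the gene in cells of the same cluster and library without Cdkn1a. In the Usb1-null library 5 of the 9 death genes had an interval above the expected number, against 3.87% of the 16751 compared genes other than Cdkn1a. Eda2r had 54 UMIs, 2.04 times the expected number (1.54 to 2.67). The BH3-only gene Bbc3 had 13, or 2.39 times (1.27 to 4.08), and Phlda3 had 10, or 2.26 times (1.08 to 4.15). Fas had 5, or 3.39 times (1.1 to 7.91), and Apaf1 had 76, or 1.35 times (1.06 to 1.69). For Bax, with 34 UMIs and 1.07 times (0.742 to 1.5), for Tnfrsf10b with 1.60 times (0.897 to 2.64), for Pmaip1 with 2.94 times (0.802 to 7.53) and for Perp with 1.52 times (0.493 to 3.54), the interval included 1. In the wild-type library Eda2r had 6 UMIs, 5.02 times the expected number (1.84 to 10.9), and the intervals of the other death genes included 1. Of all genes compared, 3.2% had an interval above the expected number there. A Cdkn1a UMI can come from free RNA as well. It was found in 2 of 615 wild-type and 5 of 195 Usb1-null primitive erythroid-like cells. The cells set apart are therefore not read here as cells that express Cdkn1a.

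**Figure D4:**
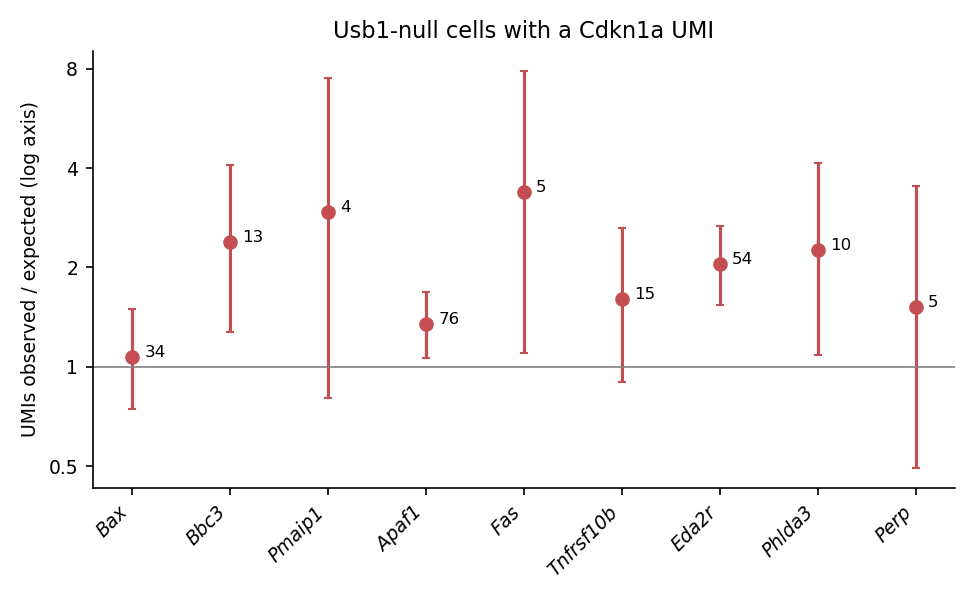
UMIs of each death gene in the 204 Usb1-null cells with a Cdkn1a UMI, as a ratio to the number expected from cells of the same cluster without Cdkn1a (log axis), with exact 95% counting intervals and the observed UMIs printed beside each point. Eda2r, Bbc3, Phlda3, Fas and Apaf1 have intervals above 1, as 3.87% of all compared genes do, and Bax lies near 1.

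The differences between the libraries were nearly as large without the few cells with Cdkn1a. In the other cells the ratio of Eda2r was 4.0 (3.38 to 4.76), that of Bbc3 1.62 (1.3 to 2.1), that of Tnfrsf10b 1.77 (1.46 to 2.14) and that of Bax 0.708 (0.658 to 0.762). Cells with Cdkn1a were deeper, with a median of 2802.5 UMIs against 2292 in the other Usb1-null cells. The part of depth in this pattern, beyond the scaling to total UMIs, was not tested.

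Short genes were lower as a class in the Usb1-null library, so each death gene was placed among genes of like length. The median log2 ratio was −0.12 in the shortest decile of annotated gene length and 0.05 in the ninth decile. Bax, 5.20 kb long, lay 0.39 below the median of its decile and above 13.9% of that decile. Apaf1, 93.5 kb long, lay 0.36 above the median of its decile, and Eda2r, 43.4 kb long, 1.85 above its own. Phlda3, 3.02 kb, and Pmaip1, 7.03 kb, were short genes and nevertheless lay 0.69 and 0.95 above the medians of theirs. The order of the 9 genes was the same after the median of the decile was subtracted. The ribosomal protein genes had a summed ratio of 0.711, beside 0.707 for Bax alone, and a link between the 2 was not tested.

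**Figure D5:**
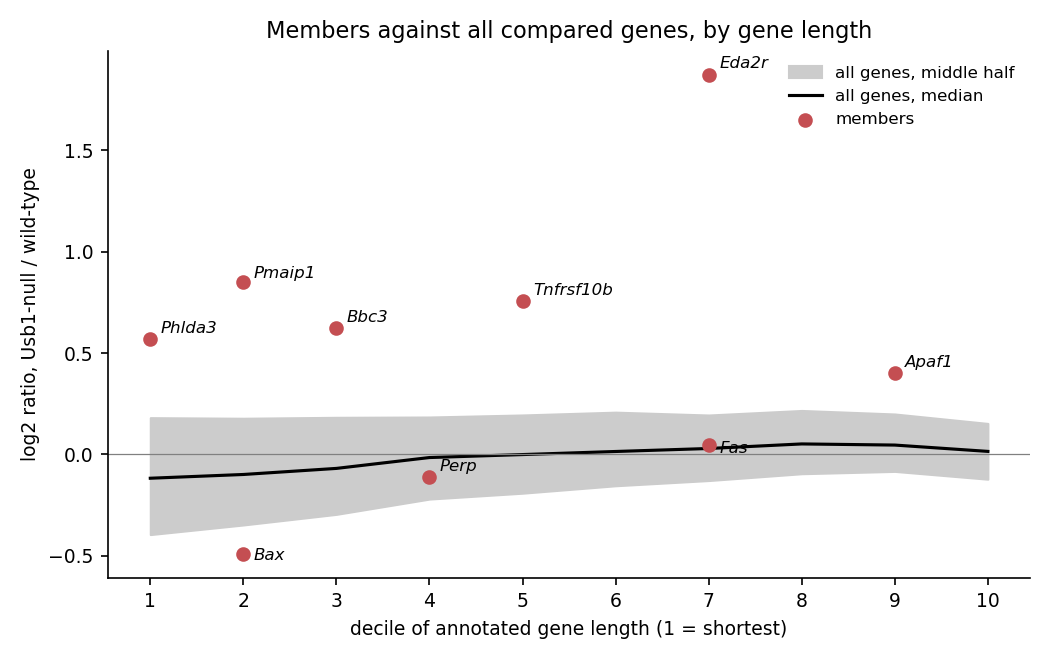
Log2 ratio (Usb1-null over wild-type, 1 CPM added) of the death genes, red points, against the decile of annotated gene length, with the median of all compared genes as a black line and the range from the 25th to the 75th percentile in grey. Bax lies below the grey band and 6 genes lie above it, with Eda2r highest at 1.87.

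The other genes of the pathway were taken from fixed lists. Of 23 p53 targets of feedback and arrest, 6 were at least 1.5-fold higher and 1 as much lower, with a median log2 ratio of 0.42. With 1 CPM added, their ends were Ccng2, a cyclin G relative, at a ratio of 1.88 (1.65 to 2.15) before the addition, and the phosphatase gene Ptp4a3 at 0.660 (0.558 to 0.781). With nothing added Cdkn1a had the highest ratio, 2.00 (1.53 to 2.63), while Ccng1 stood at 1.74 and Mdm2 at 1.36. Of 14 genes of the p53 family and its regulators, 1 was that much higher and 1 that much lower, with a median of 0.17. Trp53 had 68.4 and 69.0 CPM, a ratio of 1.01 (0.945 to 1.08). The higher one was Trp73, a relative of p53 with only 7 and 17 UMIs, at 1.58 (0.623 to 4.51). Among genes of this list with at least 100 UMIs the ends were Mdm4, an inhibitor of p53, at 1.26 (1.2 to 1.31) and Trp63 at 0.636 (0.570 to 0.709). The transcript of p53 itself was thus at nearly equal levels, while the median of its feedback targets lay above that of all genes.

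Of 14 counted other Bcl-2 family genes 4 were at least 1.5-fold higher and none as much lower, with a median of 0.13. Their ends were Bnip3, a mitophagy receptor induced in hypoxia, at 2.50 (2.28 to 2.74) and Bak1, the effector that acts in parallel to Bax, at 0.777 (0.617 to 0.979). Bax and Bak1, the pair of pore-forming effectors, were thus both lower. Of 17 caspase and apoptosome genes 1 was at least 1.5-fold higher, none as much lower, with a median of −0.10. In this list 7 intervals lay below 1 and 3 above, where 28.5% and 27.1% of all genes did so. The highest was Casp8, the initiator caspase of death receptors, with 25.1 and 93.8 CPM and a ratio of 3.74 (3.41 to 4.10), while Dffa, the inhibitor of the apoptotic nuclease, was lowest at 0.733. Of 17 counted genes of death receptor signalling 1 was that much higher, Cflar, the decoy relative of caspase 8, at 1.64 (1.53 to 1.75), and the lowest with at least 100 UMIs was Edaradd, an adaptor of the ectodysplasin receptor, at 0.776. The sparser Fadd, the adaptor of Fas, stood at 0.697 (0.448 to 1.09). The median of this list was −0.09. Of 16 genes induced by tissue dissociation 5 were that much higher and none as much lower, with a median of 0.21, from Dusp1 at 1.62 down to Jun at 0.750. The medians of these lists lay below those of both p53 target lists. The counts at 1.5-fold did not keep that order. They were 5 of 16 dissociation and 4 of 14 other Bcl-2 family genes, beside 6 of 23 feedback and arrest targets. Of all genes compared, 9.2% were that much higher. All 12 mature liver genes were at least 1.5-fold higher, and 4 of them had no UMI in the wild-type library. The lowest ratio was that of Fgb, 2.04, and Alb, the most abundant in the Usb1-null library, had 0.966 and 40.4 CPM, a ratio of 41.8 (27.2 to 67.8). Without the 135 wild-type and 779 Usb1-null cells that held a UMI of this list, the median of the death genes was 0.55 and 5 of 9 were still at least 1.5-fold higher.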

How the data were processed

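Whole E9.5 mouse embryos of the 2 genotypes gave 1 droplet-based library each (3′ kit, v3.1 chemistry). The authors deposited matrices of unnormalised UMI counts per gene and barcode. The file header and the methods name Cell Ranger 6.1.2, the submitters' processing notes Cell Ranger 2.1.1 with mm10, and no source used here says whether intronic reads were counted. Coordinates were taken from GENCODE M21 (GRCm38), which holds 32235 of the 32285 gene identifiers. Every barcode held at least 500 UMIs. The methods give fewer wild-type cells than there are deposited barcodes, 15162, and as many Usb1-null cells as barcodes, 13034.

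Cells with 200 to 6000 genes and under 30% mitochondrial UMIs were kept, as in the study. Doublets called by Scrublet (1085 and 648 cells) were kept, and removed in an alternative. The libraries shared 61 barcodes. UMIs were summed per library and cluster, giving exact Poisson intervals of levels, exact conditional intervals of ratios and Clopper-Pearson intervals of shares. Intervals were tried on simulated counts with Poisson error alone, the error they assume. That trial cannot speak to variation between embryos, cells or libraries. Joint clustering used Scanpy 1.11.5 with 2000 variable genes, 30 principal components, Harmony correction rewritten in NumPy 2.4.6, 15 neighbours and Leiden (leidenalg 0.10.2) at resolution 0.5, the value nearest to 19 clusters. The 9 genes were withheld, as were Xist, Tsix and the mitochondrial, Y-linked and ribosomal protein genes. A cluster was named with at least 3 raised markers (10 UMIs, 2-fold), at least 1 of them among its 10 leading genes, and a clear lead over the next class, a rule set after the clusters were seen. These names are not the study's, and differences from its clusters can arise from that.

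The genes and lists were chosen with earlier results of these data known. Named were all 9 genes, the ends of each list by log2 ratio (1 CPM added) among genes with at least 100 UMIs, Trp53, Trp63, Cdkn1a, Mdm2 and Ccng1, and the 3 genes most alike to Eda2r, Perp, Phlda3 and Bax.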

Additional observations from a re-analysis of the deposited data

How the results depend on the processing

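Across the whole-library alternatives of cell filter, doublets, composition, depth, total and scale, 5 of the 9 death genes were at least 1.5-fold higher in each; a 2-fold threshold gave 2 genes and a lower threshold gave 6. The count uses ratios with nothing added, so the CPM added does not enter it. The median log2 ratio of 0.57 ranged from 0.34 (5 CPM added) to 0.69 (0.1 CPM added). Of 126 values of single genes under 14 alternatives, 122 stayed within their counting interval and none that was beyond counting error reversed. The 4 that moved were Bax, −0.38 with at least 1000 genes per cell and −0.26 in cells with 1000 to 3000 UMIs, and Pmaip1 (0.34) and Eda2r (1.5) with 5 CPM added. Fas ranged from −0.20 to 0.08 and Perp from −0.17 to 0.08, both within counting error of equal. The adjustment for length and leaving out endothelial-like cells or cells with liver UMIs were added after the data had been seen. Clusters with a median above 0 numbered 16 of 18, but 10 of 17 with a limit of at least 10 wild-type UMIs per gene, added after the data had been seen, and were 12 of 15 with at least 50 UMIs per gene, 14 of 17 with another seed and 21 of 26 at a higher resolution. No paired analysis was possible because there was 1 library per genotype, and for the same reason no replicate could be left out. The cause of these shifts was not tested. Depth limits Pmaip1 and Fas most, with 21 and 34 wild-type UMIs.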

Other observations

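Casp8 and Cflar, neighbouring genes on the plus strand of chromosome 1 (58795374 to 58847503 and 58711508 to 58758884), were the genes with the highest ratio in the caspase and death receptor lists. Casp8 was higher in 18 of 18 clusters, with 17 intervals above 1 and its highest ratio in neural progenitor-like cells, where it stood at 54.0 CPM (44.7 to 64.7) in the wild-type and 339 CPM (320.3 to 359) in the Usb1-null library. Cflar was higher in 17 of 18 clusters, with 11 intervals above 1, and stood nearest to equal in cardiomyocyte-like cells, at a ratio of 0.979. In endothelial-like cells, where Eda2r had its highest level, the ratio of Casp8 was 1.76 (1.29 to 2.43), below the 3.74 of the whole library.

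Over the 36 cluster sums, the genes most alike to Eda2r were Gm42418 (Pearson r 0.89), Lars2 (0.87) and AY036118 (0.87), which had whole-library ratios of 4.66, 4.16 and 5.14, beside 4.02 for Eda2r. Gm42418 took 0.239% of the wild-type and 1.11% of the Usb1-null UMIs. The genes most alike to Bax were Mrpl38 (0.88), Nme1 (0.84) and Babam1 (0.84), which were themselves lower in the Usb1-null library, at ratios of 0.565, 0.656 and 0.660. Those most alike to Phlda3 were March7 (0.67), Pdk1 (0.67) and Dhx38 (0.67), and after Trp63 those most alike to Perp were Nebl (0.62) and Mgrn1 (0.59). The whole-library ratios were 1.12 for March7, 1.51 for Pdk1, 1.07 for Dhx38, 1.03 for Nebl and 0.926 for Mgrn1. All points share the 2 libraries, so genes that differ between them in the same direction tend to be alike.

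Cells with UMIs of at least 2 different death genes made up 1.44% of wild-type and 6.61% of Usb1-null cells, and the most found in a single cell was 3 and 6 genes. These shares were not thinned to equal depth.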
